A study of Homo sapiens with 42 samples.

Results

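Of the 42 arrays in the series, 6 compare A375 cells with and without p53 siRNA while both are exposed to MLN4924. A375 is an established human melanoma line that carries a mutant BRAF and responds to p53 activation. In all 6 samples the cells were transfected for 48 hours and then kept for 26 hours in 650 nM MLN4924. In 3 of them the siRNA was directed at p53, and in the other 3 it was GL2, directed at firefly luciferase, for which human cells have no target. The arrays were chosen by their titles. The same siRNA difference is given, where it helps to read a gene, from 6 p53 siRNA and 6 GL2 arrays in 0.065% DMSO, which the labels hold as 2 sets of 3 and 3 without saying which set goes with MLN4924 and which were pooled here, and from 3 and 3 arrays in 5 uM Nutlin, none of which is shared with the MLN4924 comparison. Every group is the same cell line, treated from 27000 cells per the labels' protocols, and an siRNA lowers its target without removing it. Whether the replicates came from separate cultures is not stated. The p-values thus rest on how much the arrays of the series varied within groups, which may be technical, and precision is limited by the number of arrays per group.

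The transcription factor p53 is held low by MDM2, a ubiquitin ligase that it induces itself. When p53 is stabilised it raises genes of cell cycle arrest, cell death, repair and metabolism, and through the CDK inhibitor p21, the product of CDKN1A, it keeps RB-family proteins active, so that E2F targets of DNA replication and DREAM targets of mitosis are repressed. MLN4924 blocks NEDD8 activation and so stops the cullin-RING ligases, which normally destroy the licensing factor CDT1, p21 and NRF2 among other proteins. Cells that keep CDT1 re-replicate their DNA, a damage that is known to activate p53, while Nutlin frees p53 from MDM2 directly.

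Levels are log2 signals with the median gene of every array brought to the median over all arrays, and a difference is p53 siRNA minus GL2, with its standard error, n = 3 against 3. Standard errors and p-values come from 1 fit of all 42 arrays in 14 groups, which share 1 estimate of each gene's spread. Calls required at least a 1.5-fold difference and an adjusted p under 0.05 in limma (Benjamini-Hochberg, over all 19775 genes), and only called genes are said to be higher or lower or to have risen or fallen. A gene is termed dim where the lower group's mean lay under the median of all signals, 31.9 on the linear scale. The trimmed mean signal was 150.02 on each of the 6 arrays, and the ratio of 5' to 3' signal was 0.888 to 0.911 for actin and 1.06 to 1.19 for GAPDH, with overlapping ranges in the groups. Of 20 measured melanocyte lineage genes 12 lay over that median in both groups. MITF, the melanocyte regulator, had 8.20 to 8.28 with GL2 and 8.01 to 8.49 with p53 siRNA, whereas the pigment genes PMEL, MLANA and TYR were dim in both. Summed linear signals of fibroblast markers were 450.6 to 614 with GL2 and 440.5 to 492 with p53 siRNA, those of epithelial markers 224.5 to 305.5 and 204.6 to 268.8, and those of leukocyte markers 1139 to 1765 and 1920 to 2129. In the last list HLA-DRA was the called member, 0.93 ± 0.24 higher [1.09], in the epithelial list the dim ESRP1 was lower at -1.96 ± 0.49 [-1.74], and the leukocyte genes PTPRC, CD3E and CD14 were dim. Of the 10 epithelial members 8 were dim and 6 had a positive difference. EPCAM (0.98) and KRT14 (0.58) were not called with all arrays. They were called higher without the library labelled GL2 replicate 3 [1.34 and 0.92]. The sums of leukocyte and of melanocyte genes (3671 to 4383 with GL2, 3298 to 3403 with p53 siRNA) did not overlap between groups, and their part in the results was not tested. All these sums are of deposited signals without centring. The median gene of those signals was 5.82 to 5.92 with GL2 and 5.63 to 5.71 with p53 siRNA on the log2 scale. After centring, the median difference of the 20 melanocyte genes was 0.02 [0.04], with 1 higher and none lower.

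The library labelled GL2 replicate 3 stood apart from its group. Its median absolute log2 difference was 0.34 to replicate 1 and 0.32 to replicate 2, which differed from each other by 0.18, and it was 0.21 and 0.23 from replicates 1 and 2 of BRCA1 siRNA under MLN4924. The level of BRCA1, a repair gene that another siRNA of the series targets, was 4.72 in that library and 7.97 and 8.26 in the other GL2 arrays. The library labelled BRCA1 siRNA replicate 3 under MLN4924 was in turn 0.21 and 0.18 from GL2 replicates 1 and 2. It was 0.32 from replicates 1 and 2 of its own group. Whether these libraries were exchanged was not tested, and the labels were kept. Each difference is therefore followed in square brackets by the value without the library labelled GL2 replicate 3, or, for counts, by the count without it.

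Under MLN4924 2742 genes differed between p53 siRNA and GL2 cells [2224], 13.9% of those tested [11.2%]. Higher with p53 siRNA were 1702 genes, 8.61%, and lower were 1040, 5.26% [1346 and 878, 6.81% and 4.44%]. Of these, 1156 higher and 774 lower genes were called both ways, 67.9% and 74.4% of the calls with all arrays. The split between directions depended on the scaling. At the deposited scaling, without centring, 940 genes, 4.75%, were higher and 1668, 8.43%, lower, as the median gene differed by 0.12 after centring and by -0.07 before. There all 1040 lower genes and 940 of the 1702 higher genes were called again. Without 3 doubted libraries, 1520 genes were higher, 7.69%, and 976 lower, 4.94%. These were the libraries labelled GL2 and BRCA1 siRNA replicate 3 under MLN4924 and p53 siRNA replicate 1 under Daunorubicin, the last of which had a 5' to 3' ratio of 0.0118 for actin and 0.0509 for GAPDH and adds only to the estimate of spread.

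The p53 targets were the lower group. Of 46 measured targets in 4 lists, 28 were lower and 1 was higher, COP1 [27 and 0], with a median difference of -1.06 [-1.11] where the median of all genes was 0.12 [0.12]. At the deposited scaling 29 were lower and none was higher. In 30 targets all p53 siRNA arrays lay under all GL2 arrays, against 12% of all genes. The median level of the 46 targets was 9.70, 9.61 and 9.43 in the GL2 arrays and 8.20, 8.24 and 8.32 in the p53 siRNA arrays. In DMSO it was 8.13 to 8.26 with GL2 and 7.72 to 7.93 with p53 siRNA. In the plot of list medians by array, the p53 siRNA arrays under MLN4924 thus lie at or just above GL2 cells in DMSO. They all lie above the p53 siRNA arrays in DMSO.

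**Figure D1:**
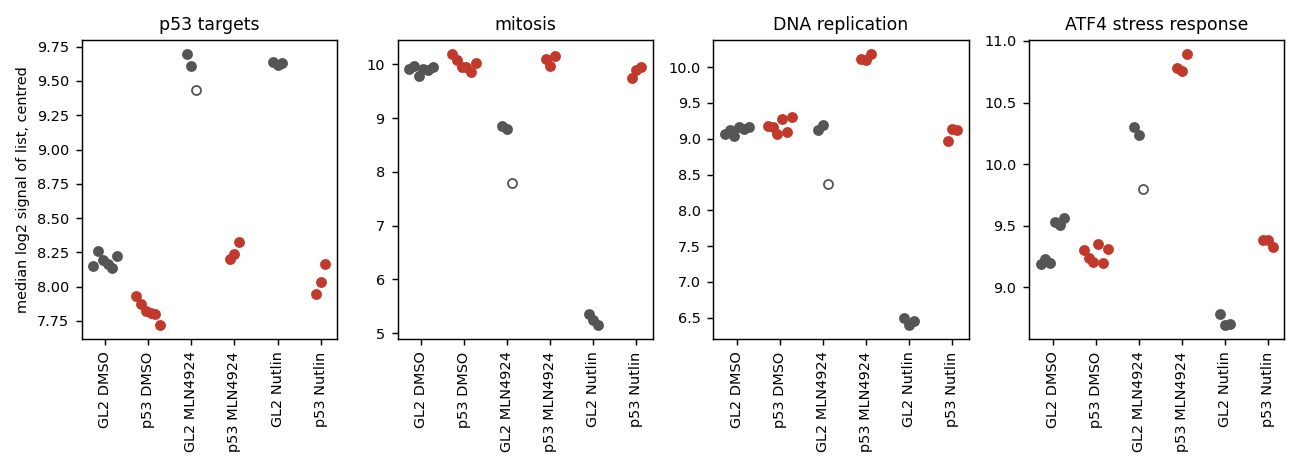
Median centred log2 signal of 4 gene lists on each array (vertical axis) for GL2 (grey) and p53 siRNA (red) in DMSO, MLN4924 and Nutlin (horizontal axis), 1 point per array, the open point being the library labelled GL2 replicate 3. Under MLN4924 the GL2 arrays are above the p53 siRNA arrays for p53 targets (9.43 to 9.70 against 8.20 to 8.32) and below them for mitosis (7.79 to 8.86 against 9.98 to 10.16), DNA replication (8.37 to 9.19 against 10.10 to 10.19) and the ATF4 stress response (9.80 to 10.30 against 10.76 to 10.89).

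Among arrest genes, CDKN1A, which encodes p21, had a signal of 11.76, 11.69 and 11.71 with GL2 and 7.74, 7.15 and 7.90 with p53 siRNA. The groups lay far apart, and CDKN1A was lower by -4.12 ± 0.17 [-4.12] (limma adjusted p = 3.03e-17). In DMSO the difference was -2.09. GDF15, a stress cytokine of the TGF-beta superfamily, was at 12.51, 12.52 and 12.26 with GL2 and at 6.77, 7.0 and 7.67 with p53 siRNA, a difference of -5.28 ± 0.25 [-5.37] (limma adjusted p = 4.55e-16). Its GL2 level in DMSO was 6.89 to 7.23. All GL2 arrays under MLN4924 stood far above that level, and the p53 siRNA arrays lay from just below to just above it. GDF15 also differed by -2.32 in DMSO, so the p53 siRNA arrays under MLN4924 all lay above the mean of p53 siRNA in DMSO. SESN1, a sestrin that restrains mTORC1, was at 9.43, 9.47 and 9.24 against 6.60, 6.50 and 6.71, and was lower by -2.78 ± 0.13 [-2.85].

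ZMAT3, an RNA-binding p53 target, was lower by -2.26 ± 0.21 [-2.23], SFN, the 14-3-3 sigma gene, by -1.40 ± 0.13 [-1.29], and the polo-like kinase genes PLK2 and PLK3 by -1.06 ± 0.14 [-1.12] and -1.08 ± 0.20 [-1.06]. TP53INP1 was lower by -4.67 ± 0.21 [-4.69] on a probe set that was dim with p53 siRNA, while its 2 other probe sets differed by 0.11 and 0.27, so the gene's difference depends on the probe set. In all, 8 of 12 measured arrest genes were lower and none was higher [8 and 0].

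The other 4 arrest genes did not pass the test as lower. GADD45A, a stress sensor that can be induced with or without p53, was at 11.73, 11.71 and 11.29 with GL2 and at 11.83, 11.86 and 11.99 with p53 siRNA, a difference of 0.32 ± 0.15 [0.18] (limma adjusted p = 0.138). Its GL2 level in DMSO was 9.65 to 9.87, below all 6 arrays. SESN2, the sestrin that ATF4 also drives, was at 8.94, 9.08 and 8.20 against 8.45, 8.56 and 8.39, with ranges that overlap and a difference of -0.28 ± 0.20 [-0.55] (limma adjusted p = 0.397). Under Nutlin, with no shared array, the same genes differed by -1.89 for GADD45A and -1.63 for SESN2. FBXW7, an F-box protein, differed by -0.57 ± 0.18 [-0.58] and E2F7, a repressor of E2F targets, by 0.57 ± 0.20 [0.28], both under the fold threshold, and FBXW7 was called at the deposited scaling (-0.76). Other probe sets of SESN2, at 0.13, and of FBXW7, between -1.27 and 0.37, did not all share the sign.

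**Figure D2:**
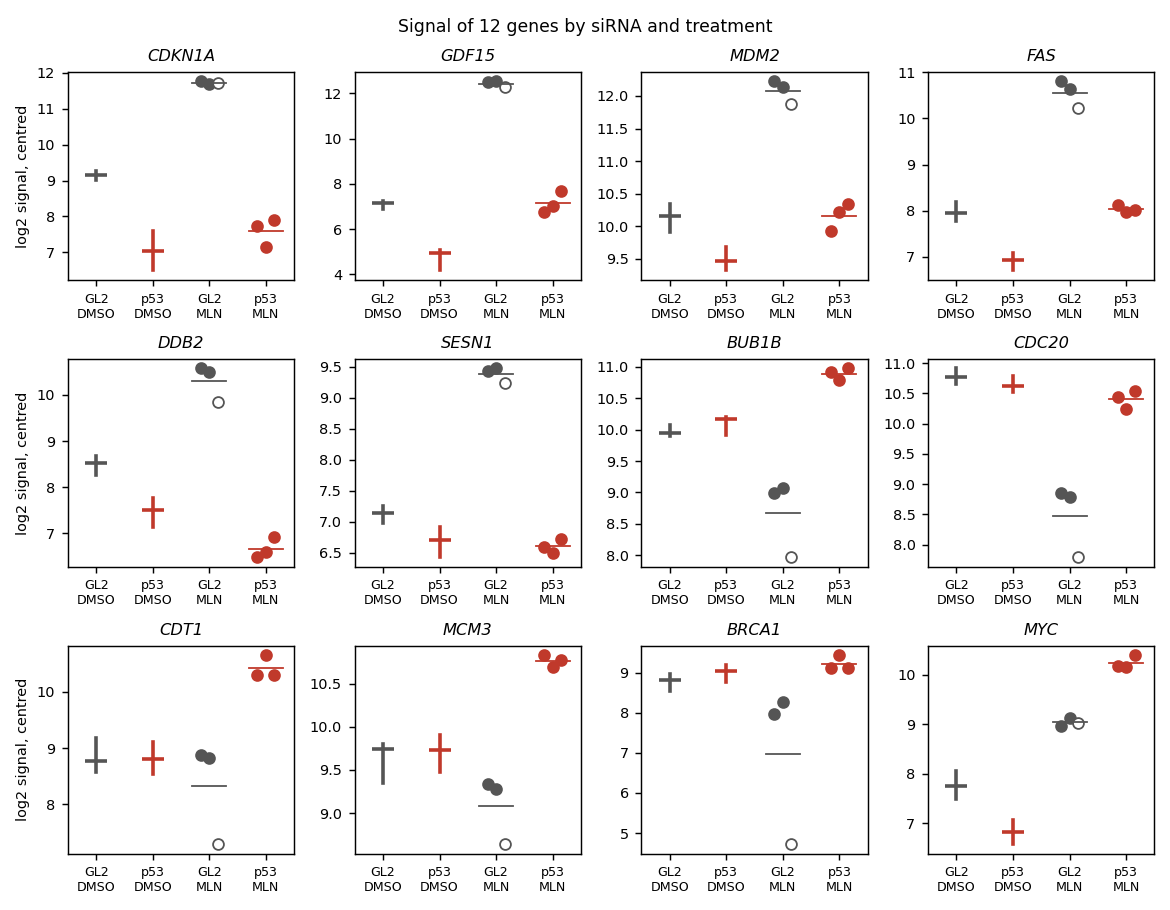
Centred log2 signal (vertical axes, which differ in range) of 12 genes for GL2 (grey) and p53 siRNA (red); points are single MLN4924 arrays with their mean as a line, the open point is the library labelled GL2 replicate 3, and bars span the lowest to highest of 6 DMSO arrays with the median as a tick. CDKN1A (11.69 to 11.76 against 7.15 to 7.90), GDF15, MDM2, FAS, DDB2 and SESN1 are lower, and BUB1B, CDC20, CDT1, MCM3, BRCA1 and MYC higher, in every p53 siRNA array than in every GL2 array, and the open point lies far below the other GL2 arrays for BRCA1 (4.72 against 7.97 and 8.26).

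Of 6 feedback genes 3 were lower and 1 was higher [3 and 0]. MDM2, the ligase that degrades p53, was at 12.22, 12.13 and 11.88 with GL2 and at 9.93, 10.22 and 10.34 with p53 siRNA. The groups did not overlap, and MDM2 was lower by -1.92 ± 0.16 [-2.01] (limma adjusted p = 2.03e-10), with its 9 other probe sets between -5.35 and -0.91. The phosphatase PPM1D was lower by -1.05 ± 0.18 [-1.17] and cyclin G1, CCNG1, by -1.06 ± 0.13 [-1.11]. The ubiquitin ligase COP1 was higher by 0.64 ± 0.12, a call that was lost without the library labelled GL2 replicate 3 [0.56]. MDM4, a relative of MDM2, differed by 0.23 ± 0.21 [0.15] and RCHY1, a ligase for p53, by 0.08 ± 0.16 [0.01].

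Of 15 death genes 6 were lower and none was higher [5 and 0]. FAS, the death receptor, had 10.80, 10.64 and 10.22 with GL2 and 8.12, 7.97 and 8.02 with p53 siRNA, and was lower by -2.52 ± 0.17 [-2.68] (limma adjusted p = 1.96e-12). All 4 other probe sets of FAS were lower as well, by -2.97 to -1.60. PHLDA3, an inhibitor of AKT, was lower by -1.89 ± 0.24 [-2.0], TP53I3, a quinone oxidoreductase, by -1.57 ± 0.12 [-1.65], BAX, the pore-forming BCL2 relative, by -1.51 ± 0.36 [-1.73], and the TRAIL receptor TNFRSF10A by -1.21 ± 0.21 [-1.21]. PIDD1, a caspase-2 activator, was lower by -0.84 ± 0.29 with overlapping arrays, a call lost without the doubted library although the difference was not smaller [-0.91]. With all 3 doubted libraries left out 7 death genes were lower and none was higher.

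The remaining death genes included several that p53 is known to induce. PMAIP1, the BH3-only protein NOXA, was at 10.90, 10.98 and 10.63 with GL2 and at 11.33, 11.17 and 11.27 with p53 siRNA, with a difference of 0.42 ± 0.24 [0.32] (limma adjusted p = 0.237). TNFRSF10B, the other TRAIL death receptor, was at 10.64, 10.52 and 10.54 against 10.31, 10.09 and 10.26, a difference of -0.35 ± 0.13 [-0.36] (limma adjusted p = 0.0603). The 3 other probe sets of TNFRSF10B differed in the same direction, by -1.90 to -0.35. PMAIP1 and TNFRSF10B were both above their GL2 level in DMSO on all 6 arrays, which was 9.03 to 9.37 for PMAIP1 and 8.66 to 9.09 for TNFRSF10B. Of the 15 death genes, called or not, 14 had a negative difference, PMAIP1 being the exception. TNFRSF10D was not called at -1.53, with its other probe set at -1.26. APAF1, the apoptosome scaffold, was at 8.27, 8.12 and 7.10 with GL2 and 7.39, 7.49 and 7.45 with p53 siRNA. It was not called, at -0.39 ± 0.27 [-0.75], and the doubted library was the array that overlapped. Its 2 other probe sets differed the other way, by 0.42 and 1.0.

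Of the 4 lists, repair and metabolism held the largest share of called targets, 11 lower of 13 and none higher [11 and 0]. DDB2, a damage sensor of nucleotide excision repair, was at 10.57, 10.49 and 9.85 with GL2 and at 6.48, 6.61 and 6.92 with p53 siRNA, and was lower by -3.64 ± 0.16 [-3.86] (limma adjusted p = 5.74e-17). XPC, its partner, was lower by -1.36 ± 0.17 [-1.40], POLH, the translesion polymerase, by -1.68 ± 0.24 [-1.77], and RRM2B, the p53-induced ribonucleotide reductase subunit, by -1.98 ± 0.18 [-2.03]. FUCA1, a lysosomal fucosidase, was at 9.20, 9.06 and 8.93 against 6.84, 6.71 and 6.88, and was lower by -2.25 ± 0.12 [-2.32]. A second probe set of FUCA1 differed by -0.01. TIGAR, which limits glycolysis, was lower by -1.38 ± 0.14 [-1.42], and CMBL, a hydrolase, by -1.84 ± 0.16 [-1.90].

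The primary transcript of the microRNA miR-34a is another p53 target, and the probe set named MIR34A was among the largest decreases that were called both ways and not dim. It was at 8.85, 8.71 and 8.48 with GL2 and at 6.35, 6.20 and 6.08 with p53 siRNA, a difference of -2.47 ± 0.18 [-2.57] (limma adjusted p = 7.36e-12). The array reports that transcript, not the mature microRNA, whose RefSeq sequence (GRCh38.p14, chr1:9151735-9151756, minus strand) is given with the seed, bases 2 to 8, in capitals because it sets which mRNAs it pairs with.
hsa-miR-34a-5p: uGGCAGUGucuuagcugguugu

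The remaining largest decreases by the same rule were ACTA2, ELAPOR1, SUGCT and NACC2. ACTA2, smooth muscle actin, was at 10.02, 10.03 and 9.98 with GL2 and at 5.69, 6.06 and 6.10 with p53 siRNA, and was lower by -4.06 ± 0.13 [-4.08], but of its 2 other probe sets 1 differed by -1.07 and 1 by 1.01, and with the mean of all probe sets it was not called (-1.41, limma adjusted p = 0.0539). ELAPOR1 was lower by -3.24 ± 0.33 [-3.41], with its 2 other probe sets at -2.65 and 0.20, SUGCT, a mitochondrial CoA transferase, by -3.01 ± 0.48 [-3.05], and NACC2, a BTB-domain repressor, by -2.52 ± 0.15 [-2.57]. Among dim genes the largest decreases were PURPL, a long noncoding RNA induced by p53, at -4.97 ± 0.35 [-4.99], TRIM22, an antiviral TRIM protein, at -4.85 ± 0.42 [-4.92], and SHANK3, a synaptic scaffold, at -4.83 ± 0.89 [-4.77] with an opposite difference of 1.24 on its other probe set.

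Mitotic genes were higher with p53 siRNA. Of 57 measured genes of mitosis 55 were higher and none was lower [49 and 0], with a median difference of 1.60 [1.26]. In all 57, each p53 siRNA array lay above each GL2 array, which 24.9% of all genes did. The median level of these genes was 8.86, 8.79 and 7.79 in the GL2 arrays and 10.11, 9.98 and 10.16 in the p53 siRNA arrays, the doubted library being the lowest. In DMSO the same median was 9.79 to 9.97 with GL2 and 9.86 to 10.20 with p53 siRNA. RNA of whole cultures cannot tell fewer cells in mitosis from less of these RNAs per cell.

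The promoters of several of these genes are shown because they hold the CHR element, TTTGAA or TTTAAA, through which the DREAM complex is known to act at mitotic genes. RefSeq promoter windows (GRCh38.p14, 250 bases before to 50 after the start) were searched on both strands. A match was found in 37 of 48 mitotic genes with a window, 77.1%, in 6 of 55 replication genes, 10.9%, and in 24.3% of all promoters. Among measured genes the share was 18.9%. Of the mitotic lists, kinases and regulators had a match in 9 of 18 and spindle, kinetochore and cytokinesis genes in 28 of 30. Each stretch below lies upstream of the start, with the element in capitals, at chr15:40161024-40161068 (plus) for BUB1B, chr15:90994536-90994577 (minus) for PRC1, chr1:197146670-197146698 (minus) for ASPM and chr1:43358894-43358943 (plus) for CDC20. The matches are descriptions of these windows, and no binding was measured.
BUB1B: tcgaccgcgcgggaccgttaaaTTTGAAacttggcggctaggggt
PRC1: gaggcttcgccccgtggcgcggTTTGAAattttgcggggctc
ASPM: cctcattggtggaggcggcaagTTTAAAc
CDC20: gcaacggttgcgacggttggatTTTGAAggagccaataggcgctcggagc

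Of 23 mitotic kinases and regulators 22 were higher [18], and 11 in a fit of only the 6 arrays. BUB1B, the checkpoint kinase BUBR1, was at 8.99, 9.08 and 7.96 with GL2 and at 10.92, 10.79 and 10.98 with p53 siRNA, a difference of 2.22 ± 0.26 [1.86] (limma adjusted p = 3.53e-07). CDC20, the activator of the anaphase-promoting complex, was at 8.86, 8.79 and 7.79 against 10.45, 10.24 and 10.54, and rose by 1.93 ± 0.23 [1.59]. CDK1, the mitotic kinase, rose by 1.76 ± 0.23 [1.60], AURKB, the Aurora kinase of the chromosomal passenger complex, by 1.72 ± 0.29 [1.29], and FOXM1, a transcription factor of late cell cycle genes, by 1.53 ± 0.31 [1.07]. In each of these the doubted library was the lowest array and enlarged the difference.

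Some regulators moved less. CCNB1, cyclin B1, was at 9.79, 9.79 and 9.23 with GL2 and at 10.13, 10.17 and 10.39 with p53 siRNA, and its call of 0.62 ± 0.16 was lost without the doubted library [0.44]. The calls of AURKA, Aurora kinase A (0.71 ± 0.13 [0.55]), of CDC25B, a CDK phosphatase (0.69 ± 0.14 [0.54]), and of SGO1, shugoshin (0.74 ± 0.18 [0.58]), were lost likewise. Securin, PTTG1, was not called either way (0.42 ± 0.14 [0.22]). CCNB1, AURKA and CDC25B had GL2 levels in DMSO of 11.39 to 11.59, 10.62 to 10.83 and 10.12 to 10.57, above all 6 MLN4924 arrays.

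Of 34 spindle, kinetochore and cytokinesis genes 33 were higher [31]. NDC80, the kinetochore protein that binds microtubules, was at 7.32, 7.36 and 6.31 with GL2 and at 9.38, 9.17 and 9.29 with p53 siRNA, and rose by 2.28 ± 0.27 [1.94] (limma adjusted p = 2.55e-07). NCAPH, a condensin subunit, rose by 2.26 ± 0.31 [1.96], PRC1, the bundler of the central spindle, by 2.18 ± 0.30 [1.64], ASPM, a spindle pole protein, by 2.14 ± 0.24 [1.91], and TOP2A, topoisomerase II alpha, by 1.83 ± 0.21 [1.57]. PRC1 was not called in a fit of only the 6 arrays (limma adjusted p = 0.0554). CENPA, the centromeric histone, was higher with all arrays (0.82 ± 0.22) and not without the doubted library [0.47]. INCENP was not called (0.71 ± 0.46 [0.74]).

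**Figure D3:**
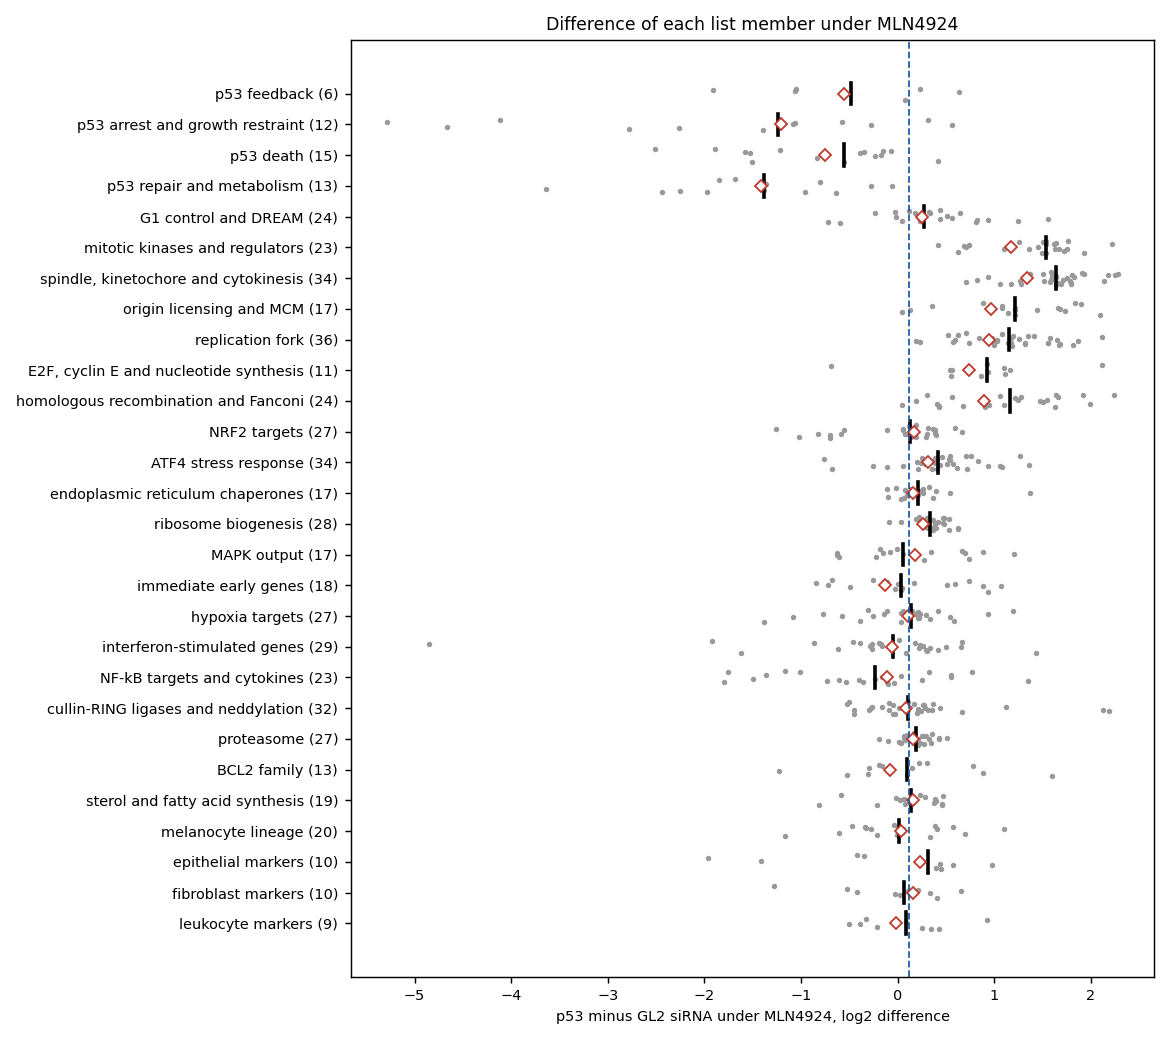
Difference p53 siRNA minus GL2 under MLN4924 (horizontal axis, log2) for each measured member of 28 gene lists (vertical axis, number of members in brackets); grey points are genes, black bars list medians with all 6 arrays, red diamonds medians without the library labelled GL2 replicate 3, and the dashed line the median of all genes, 0.12. The medians of the p53 lists lie at -0.49 to -1.38, those of mitosis at 1.53 and 1.64, and those of the replication and recombination lists at 0.92 to 1.22, while no other list reaches 0.5 in size.

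DNA replication genes were higher too, 51 of 64 in 3 lists, with 1 lower [46 and 0] and a median difference of 1.13 [0.90]. In a fit of only the 6 arrays 32 were higher. Their median level was 9.12, 9.19 and 8.37 in the GL2 arrays and 10.11, 10.10 and 10.19 in the p53 siRNA arrays. In DMSO it was 9.04 to 9.17 with GL2 and 9.06 to 9.30 with p53 siRNA. The p53 siRNA arrays under MLN4924 thus lay above every DMSO array, and GL2 replicates 1 and 2 within the range of the DMSO arrays.

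Over the 3 lists together, their promoters more often held an E2F site, searched as TTTCCCGC, TTTCGCGC, TTTGCCGC or TTTGGCGC on both strands, than a CHR element. A match was found in 24 of 55 replication genes with a window, 43.6%, in 3 of 48 mitotic genes, 6.25%, and in 3.33% of all promoters. Among measured genes the share was 4.36%. In the list of E2F, cyclin E and nucleotide synthesis, E2F sites and CHR elements were each found in 4 of 9 promoters. The 4 examples show the site in capitals, which on the strand of the gene can read as the reverse complement, at chr16:88803732-88803783 (plus) for CDT1, chr7:100101398-100101428 (minus) for MCM7, chr19:4909465-4909500 (plus) for UHRF1 and chr16:85688956-85689007 (minus) for GINS2.
CDT1: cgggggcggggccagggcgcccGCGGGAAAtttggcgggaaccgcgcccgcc
MCM7: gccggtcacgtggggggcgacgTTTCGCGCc
UHRF1: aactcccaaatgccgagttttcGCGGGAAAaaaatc
GINS2: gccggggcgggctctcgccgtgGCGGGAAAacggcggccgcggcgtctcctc

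Of 17 licensing genes 14 were higher [14], and 8 in a fit of only the 6 arrays. CDT1, whose protein the cullin-RING ligases degrade, had an RNA level of 8.87, 8.83 and 7.29 with GL2 and of 10.31, 10.65 and 10.30 with p53 siRNA, and rose by 2.09 ± 0.30 [1.57] (limma adjusted p = 4.12e-06). CDT1 was not called in the fit of only the 6 arrays (limma adjusted p = 0.0564). Its level in GL2 replicates 1 and 2 was within the 8.58 to 9.18 of GL2 in DMSO. CDC6, the loader of the MCM helicase, rose by 1.90 ± 0.25 [1.49], ORC1, of the origin recognition complex, by 1.73 ± 0.23 [1.53], the helicase subunit genes MCM3 by 1.68 ± 0.17 [1.46] and MCM7 by 1.66 ± 0.25 [1.39], and GMNN, geminin, the inhibitor of CDT1, by 1.14 ± 0.19 [0.86]. The origin subunits ORC2, ORC3 and ORC5 were the 3 that were not called.

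Of 36 fork genes 31 were higher [27]. POLE2, a subunit of polymerase epsilon, was at 7.70, 7.83 and 6.52 with GL2 and at 9.43, 9.50 and 9.49 with p53 siRNA, and rose by 2.12 ± 0.26 [1.71] (limma adjusted p = 4.1e-07). UHRF1, which carries DNA methylation through replication, rose by 1.65 ± 0.20 [1.38], GINS2, of the replicative helicase, by 1.58 ± 0.30 [1.32], and CLSPN, the checkpoint mediator claspin, by 1.82 ± 0.37 [1.49]. PCNA, the sliding clamp and itself a p53 target, was at 12.37, 12.33 and 12.23 against 12.39, 12.50 and 12.61, and was not called (0.19 ± 0.14 [0.15]). CDC45, which joins MCM and GINS, was called with all arrays (0.85 ± 0.23) and not without the doubted library [0.43].

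Of 11 E2F, cyclin E and nucleotide synthesis genes 6 were higher and 1 was lower [5 and 0], and 3 were higher in a fit of only the 6 arrays. The atypical repressor E2F8 rose by 2.12 ± 0.51 [1.58], E2F2, an activator, by 1.12 ± 0.17 [1.16], cyclin E2, CCNE2, by 1.11 ± 0.22 [0.88], and RRM2, the S-phase subunit of ribonucleotide reductase, by 0.92 ± 0.19 [0.66]. Cyclin E1, CCNE1, went the other way, from 8.06, 8.12 and 8.74 with GL2 to 7.69, 7.43 and 7.73 with p53 siRNA. Its difference of -0.69 ± 0.17 was called with all arrays and not without the doubted library [-0.48]. CDC25A, the phosphatase that activates CDK2, rose by 1.17 ± 0.35 with all arrays and was not called without that library [0.74].

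Of 24 homologous recombination and Fanconi genes 17 were higher [13], and 8 in a fit of only the 6 arrays, with a median of 1.16 [0.89]. BLM, a helicase, was at 7.16, 7.04 and 6.50 with GL2 and 8.89, 8.55 and 9.0 with p53 siRNA, and rose by 1.92 ± 0.23 [1.72]. BARD1, the partner of BRCA1, rose by 1.64 ± 0.20 [1.36], CHEK1, a checkpoint kinase with 1 of 3 other probe sets at -0.26, by 1.63 ± 0.21 [1.38] and FANCI by 1.22 ± 0.23 [0.89]. BRCA1 itself was at 9.11, 9.43 and 9.12 with p53 siRNA, above the GL2 levels given earlier, but its difference of 2.24 ± 0.58 (limma adjusted p = 0.00537) fell to a value not called without the doubted library [1.11]. That fit keeps the library labelled BRCA1 siRNA replicate 3 in the estimate of spread. With all 3 doubted libraries left out BRCA1 stayed called, and 16 genes of the list were higher. Over mitosis, replication and recombination together, 123 of 145 genes were higher with all arrays and 108 of them both ways.

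**Figure D4:**
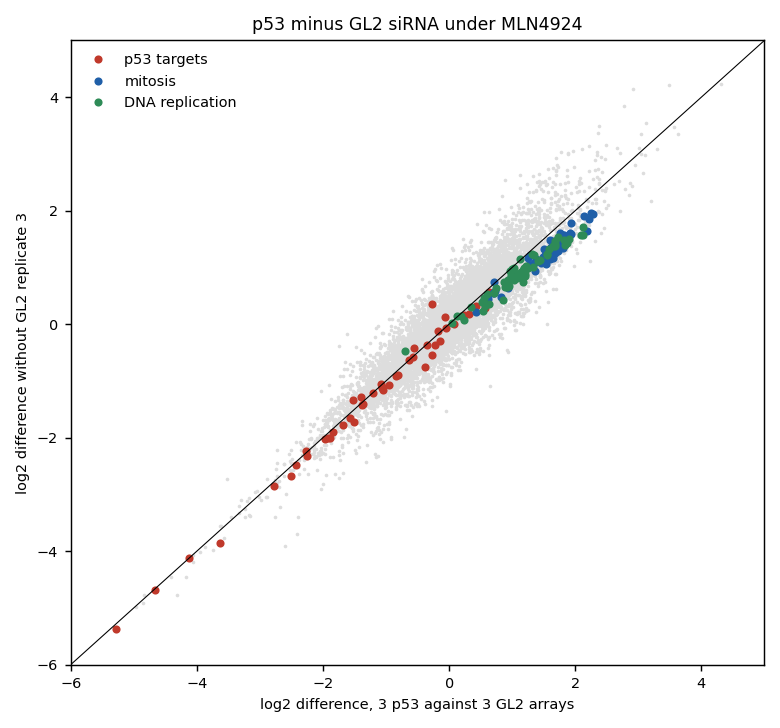
Difference p53 siRNA minus GL2 under MLN4924 with all 6 arrays (horizontal axis, log2) against the same without the library labelled GL2 replicate 3 (vertical axis, log2), 1 point per gene, with p53 targets in red, mitosis in blue and DNA replication in green over all genes in grey; the line marks equal values. Mitosis and replication genes lie mostly below the line (medians 1.60 against 1.26 and 1.13 against 0.90), while p53 targets stay near it (-1.06 against -1.11).

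Genes of G1 control and the DREAM complex differed less, with 5 of 24 higher and 1 lower [4 and 0] and a median of 0.28 [0.25]. The shares over all genes were 8.61% and 5.26% [6.81% and 4.44%]. RBL1, the pocket protein p107, was at 6.63, 6.25 and 6.22 with GL2 and 7.76, 8.05 and 7.94 with p53 siRNA, and rose by 1.55 ± 0.17 [1.48]. The DREAM subunits LIN9 and LIN54 rose by 1.24 ± 0.29 [1.04] and 0.94 ± 0.19 [0.86], LIN9 with other probe sets at -0.58 and 0.95, and CDK2, the S-phase kinase, by 0.82 ± 0.10 [0.74]. The call of the histone chaperone RBBP4 was lost without the doubted library (0.64 ± 0.16 [0.46]), as was that of the dim CDK inhibitor gene CDKN1C (-0.72 ± 0.25 [-0.61]).

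The largest increases that were called both ways and not dim included genes outside these lists. HAPLN1, which links hyaluronan to proteoglycans, was at 6.49, 6.60 and 6.08 with GL2 and at 8.93, 9.05 and 9.04 with p53 siRNA, and rose by 2.62 ± 0.17 [2.47] (limma adjusted p = 1.96e-12). In DMSO its GL2 level was 8.55 to 8.85, so GL2 cells under MLN4924 were the low group. ZNF367, a zinc finger gene, rose by 2.49 ± 0.31 [2.05], ZNF492, another, by 2.43 ± 0.31 [1.93], NMU, neuromedin U, by 2.40 ± 0.41 [1.61], and HJURP, the chaperone of CENPA, by 2.19 ± 0.28 [2.07]. Zinc finger genes have near copies that probes can share. Among dim genes HEY2, a Notch target, differed by 3.57 ± 0.37 [3.48] and GAS1, a growth arrest gene, by 3.49 ± 0.51 [4.22] on a probe set that its 2 others, at -0.26 and 0.34, did not follow, and OR7E19P, an olfactory receptor pseudogene, by 4.31 ± 0.998 [4.24].

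The cullin-RING ligase list, which holds the direct target of the drug, had 3 of 32 genes higher and none lower [3 and 1], where 8.61% of all genes were higher and 5.26% lower, so the list was near the background. FBXO5, the inhibitor EMI1 of the anaphase-promoting complex, was at 8.19, 8.40 and 7.20 with GL2 and at 9.88, 10.14 and 10.33 with p53 siRNA, and rose by 2.19 ± 0.27 [1.82]. DTL, the receptor that brings CDT1 to its ligase, rose by 2.12 ± 0.30 [1.66], and the signalosome subunit COPS3 by 0.67 ± 0.10 [0.59]. At the deposited scaling 2 were higher and 4 lower, and COPS3 was not called (0.48). Of 27 proteasome genes none was called, and they ranged from -0.19 to 0.52.

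NRF2 targets, whose regulator the CUL3 ligase degrades, had 2 of 27 higher and 4 lower [2 and 3] beside those 8.61% and 5.26% of all genes, with a median of 0.13 [0.17] that was -0.06 at the deposited scaling, where none was higher and 5 were lower. AKR1B10, an aldo-keto reductase, was lower by -1.02 ± 0.14 [-0.93] and HMOX1, heme oxygenase, by -0.70 ± 0.24 [-1.06] with overlapping arrays. AKR1C3 was at 7.97, 8.09 and 10.16 with GL2, so that its call of -1.26 ± 0.40 rested on the doubted library [-0.55]. GSR, glutathione reductase, rose by 0.67 ± 0.16 [0.78] and was not called at the deposited scaling (0.49).

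ATF4 stress response genes had 7 of 34 higher and 2 lower [7 and 2], beside 8.61% and 5.26% of all genes [6.81% and 4.44%]. Their median was 0.42 [0.31], and 2 were higher in a fit of only the 6 arrays. TRIB3, a pseudokinase that feeds back on ATF4, was at 11.34, 11.37 and 10.12 with GL2 and at 12.14, 12.13 and 12.36 with p53 siRNA, and rose by 1.27 ± 0.22 [0.85]. CEBPG, a partner of ATF4, rose by 1.36 ± 0.25 [1.01] and AARS1, alanyl-tRNA synthetase, by 0.83 ± 0.11 [0.68], whereas DDIT4, an inhibitor of mTORC1 and also a p53 target, was lower by -0.68 ± 0.13 [-0.68], and NUPR1 by -0.76 ± 0.20 [-1.03]. DDIT3, the factor CHOP, was called with all arrays (1.08 ± 0.30) and not without the doubted library [0.80]. XBP1 was the member of 17 endoplasmic reticulum genes that was called, 1.37 ± 0.20 higher [1.09], while its other probe set differed by 0.15.

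MAPK output and immediate early genes moved both ways. MYC was at 8.96, 9.14 and 9.02 with GL2 and at 10.18, 10.16 and 10.40 with p53 siRNA, and rose by 1.21 ± 0.16 [1.20] (limma adjusted p = 1.49e-06). FOSL1, an AP-1 subunit, rose by 0.89 ± 0.15 [0.89] and KLF4, a Kruppel-like factor, by 1.08 ± 0.16 [1.23], while DUSP1, a phosphatase of MAP kinases, was lower by -0.72 ± 0.19 [-1.01]. DUSP1 was not called with the mean of all probe sets (-0.58, limma adjusted p = 0.243) or without GL2 replicate 2 (-0.56). In all 4 of 17 MAPK output genes were higher and 3 lower [3 and 0], and 5 of 18 immediate early genes were higher and 1 lower [3 and 2]. The shares over all genes were 8.61% higher and 5.26% lower [6.81% and 4.44%]. At the deposited scaling the counts were 2 and 3, and 2 and 2, beside 4.75% and 8.43% of all genes.

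Of 23 NF-kB targets and cytokines 6 were lower and 1 was higher [6 and 3], 7 and 5 without the 3 doubted libraries, with a median of -0.23 [-0.11]. Over all genes 5.26% were lower and 8.61% higher [4.44% and 6.81%]. In a fit of only the 6 arrays, and with the mean of probe sets, 3 were lower. MMP3, a matrix metalloproteinase, was at 7.16, 7.58 and 7.40 with GL2 and at 5.64, 5.51 and 5.58 with p53 siRNA, and was lower by -1.80 ± 0.19 [-1.79]. The cytokines LIF and IL11 were lower by -1.37 ± 0.15 [-1.30] and -1.50 ± 0.22 [-1.31], and the chemokine CXCL2 rose by 1.35 ± 0.20 [1.44]. MMP3 and IL11 differed by -2.08 and -2.07 in DMSO as well. Of 29 interferon-stimulated genes 4 were lower and 1 was higher [3 and 2], beside the same shares of all genes. IFI44 was among the lower ones at -0.86 ± 0.14 [-0.79]. Its other probe set differed by -0.07, and with the mean of all probe sets IFI44 was not called (-0.50, limma adjusted p = 0.051).

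Hypoxia targets had 2 of 27 higher and 3 lower [2 and 4], beside 8.61% and 5.26% of all genes. ADM, adrenomedullin, rose by 1.19 ± 0.13 [1.04] and P4HA2, a collagen prolyl hydroxylase, was lower by -1.38 ± 0.11 [-1.34]. Of 13 BCL2 family genes BCL2L11, the BH3-only protein BIM, rose by 0.78 ± 0.19 [0.68], the dim BMF, which was not called at the deposited scaling, by 1.60 ± 0.53 [1.97], and the dim BIK was lower by -1.22 ± 0.44, a call lost without the doubted library [-0.81]. Of 28 ribosome biogenesis genes 2 were higher with all arrays [1] and none at the deposited scaling, of 19 sterol and fatty acid genes 1 was lower, STARD4, a sterol carrier (-0.81 ± 0.14 [-1.02]), and of 20 melanocyte lineage genes 1 was higher with all arrays, RAB27A (0.70 ± 0.19 [0.57, not called]). Without the doubted library ERBB3 of the melanocyte list was called higher instead [0.73].

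In DMSO, without MLN4924, the same siRNAs gave 787 calls, 3.98% of genes, 339 higher (1.71%) and 448 lower (2.27%). The count depended on the set of DMSO arrays, with 346 calls in the first set alone and 1159 in the second. Of the genes lower under MLN4924 189 were also lower in DMSO, 18.2% of the former and 42.2% of the latter, and of the higher genes 110, 6.46% and 32.4%. Of the p53 targets 9 were lower in both, among them CDKN1A, MDM2 and FAS, and the median of the 46 in DMSO was -0.32. The 57 mitotic genes had a median of 0.13 in DMSO with 1 called, KIF20A (0.69), and the 64 replication genes one of 0.03.

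The difference between the MLN4924 and the DMSO comparison was tested directly. It passed for 2051 genes, 10.4% [1382, 6.99%], more positive under MLN4924 for 6.96% [4.48%] of genes and more negative for 3.41% [2.51%], and for 1290 genes with the first DMSO set alone. Of the p53 targets 23 had a more negative difference under MLN4924 and 1 a more positive one [0 more positive], with a median interaction of -0.83 [-0.83]. Of the mitotic genes 52 had a more positive difference [46] and of the replication genes 48 [34]. The largest gaps among genes not dim were -2.81 ± 0.15 [-2.88] for FUCA1, which differed by 0.56 in DMSO, and 2.42 ± 0.37 [1.98] for ZNF367, which differed by 0.07 in DMSO (limma adjusted p = 1.33e-13 and 4.78e-05).

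MYC differed in opposite directions. In DMSO it was called lower with p53 siRNA, by -0.93 ± 0.11, and under MLN4924 higher, by 1.21 ± 0.16, and the interaction was 2.14 ± 0.19 [2.13] (limma adjusted p = 8.33e-09). In all 20 genes were called in opposite directions in these comparisons, of which 4 were not dim and kept the call without the doubted library. Besides MYC these were TSPAN2, a tetraspanin, ANK3, an ankyrin, and KCNN4, a potassium channel, all 4 named after their values were seen.

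Nutlin activates p53 without MLN4924, and with it the siRNAs gave 3171 calls, 16% of genes, 1615 higher (8.17%) and 1556 lower (7.87%). Of the genes higher under MLN4924 875 were higher under Nutlin too, 51.4% of the former and 54.2% of the latter, and of the lower genes 552, 53.1% and 35.5%. All 28 p53 targets that were lower under MLN4924 were lower under Nutlin, where 38 of 46 were. Under Nutlin GDF15 differed by -5.45, SESN1 by -2.82 and CDKN1A by -3.27.

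Mitotic and replication genes differed far more under Nutlin. The median of the 57 mitotic genes was 4.72 under Nutlin and 1.60 under MLN4924 [1.26], and that of the 64 replication genes 2.43 and 1.13 [0.90]. The direct test passed for 1297 genes, 6.56% [1279, 6.47%], more positive under MLN4924 for 3.86% [3.49%] and more negative for 2.7% [2.98%], and for 1970 genes without the 3 doubted libraries. It passed for 51 of the mitotic and 41 of the replication genes, all with a smaller difference under MLN4924 [53 and 46]. The median level of mitotic genes with p53 siRNA was 9.75 to 9.96 under Nutlin and 9.98 to 10.16 under MLN4924, whereas with GL2 it was 5.15 to 5.35 under Nutlin and 7.79 to 8.86 under MLN4924. RRM2 had the largest gap, -4.81 ± 0.27 [-5.07], with a difference of 5.73 under Nutlin, followed by ANLN, anillin of the contractile ring, at -3.98 ± 0.28 [-4.20] and CDK1 at -3.90 ± 0.32 [-4.06].

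Of the p53 targets 14 had a less negative or more positive difference under MLN4924 than under Nutlin and 5 a more negative one [13 and 5]. The median gap of the 46 targets was 0.49 [0.45]. DDB2 was of the latter, -3.64 against -2.17 with a gap of -1.46 ± 0.22 [-1.69], and FUCA1 too, with -1.08 ± 0.18 [-1.14]. Outside the lists RGS16, a brake on G protein signalling, differed by -0.78 under MLN4924 and -3.85 under Nutlin, a gap of 3.08 ± 0.35 [3.06]. The MLN4924 value of RGS16 is uncertain, since its 2 other probe sets differed by -1.29 and 0.66 and it was not called with their mean (-0.51, limma adjusted p = 0.0834) or without GL2 replicate 1 (-0.62), p53 siRNA replicate 1 (-0.69) or p53 siRNA replicate 2 (-0.69). PLTP, a phospholipid transfer protein, gave 2.54 ± 0.24 [2.38], and IL24, a cytokine, 2.46 ± 0.37 [2.79]. In opposite directions 27 genes were called, 13 of them not dim and kept without the doubted library. STMN1, the microtubule destabiliser stathmin, was the largest of these, -1.40 ± 0.28 [-1.79] under MLN4924, 1.46 ± 0.28 under Nutlin and -2.49 in DMSO, and was named after its values were seen.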

How the data were processed

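RNA of A375 cells was measured on 42 arrays in 14 groups of 3. The deposited table gives linear signal intensity for 54675 probe sets, which the authors obtained from Affymetrix Expression Console (version not given), as the submitters' processing notes have it; detection calls and scan dates are not given in the sources used here. The 147 zeros were raised to 0.1 before log2. Of the probe sets 41097 had 1 gene symbol in the platform annotation, 1801 several and 11715 none, and 62 were controls; 19775 genes were each taken from the probe set with the highest mean. Arrays were centred on the median gene because medians differed by over 0.1 (5.63 to 6.35). The p53 transcript is not analysed here.

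Tests used limma 3.58.1 in R 4.3.3 on 1 fit of all groups (28 residual degrees of freedom, 5 contrasts), with tables in Python 3.11.15. The members and lists were chosen with earlier results of these data known. Of 614 listed genes 574 were measured. Named are the 10 largest increases and decreases called with and without GL2 replicate 3, not dim and not overlapping, the 4 largest dim ones, up to 4 members of each list by moderated statistic, the 3 largest interactions each way, CDT1, BRCA1, CDKN1A and MDM2, and other list members by role; not all are printed. Of the 138 genes named without regard to role 72 had other probe sets, which in 55 all shared the sign. Of 217 list genes called under MLN4924 116 had others, which in 104 all shared it. Alternatives were other scalings, probe set rules, pseudocount, blocks, thresholds and libraries left out. On simulated data for the MLN4924 comparison (19775 genes) 17.9% of genes given a 1.5-fold change, 55.2% of those given 2-fold and 74.2% of those given 4-fold were called, as were 8 of 19575 left unchanged. Only 67, 67 and 66 genes were changed there, whereas 13.9% of genes were called in the data. The 1.5-fold change equals the threshold, and the noise was independent between arrays. These rates therefore cannot be carried over to the data, nor do they cover effects shared by the genes of an array.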

Additional observations from a re-analysis of the deposited data

Results flagged for a closer look

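Results are given here because the siRNA difference under MLN4924 differed from that under another condition in a limma test of the difference itself, adjusted over all genes. Against DMSO 2051 genes passed. The largest among genes not dim were 2.42 for ZNF367, 2.31 for CDC25A, 2.19 for FBXO5, -2.81 for FUCA1, -2.60 for DDB2 and -2.56 for ACTA2. Genes called in opposite directions in both comparisons, named after their values were seen, gave 2.14 for MYC, 1.87 for TSPAN2, -1.44 for ANK3 and -1.41 for KCNN4. CDC25A also had opposite calls (1.17 under MLN4924, -1.14 in DMSO), but the former was lost without the library labelled GL2 replicate 3.

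Against Nutlin 1297 genes passed. The largest were 3.08 for RGS16, 2.54 for PLTP, 2.46 for IL24, -4.81 for RRM2, -3.98 for ANLN and -3.90 for CDK1. Opposite calls, again named after their values were seen, gave -2.86 for STMN1, -1.98 for LGR4, -1.68 for GSTCD, 1.99 for CXCL2, 2.07 for ADAMTS1 and 2.10 for SHISA2. The other probe sets of LGR4 (0.08 and 0.94) and GSTCD (0.06 and 0.48) differed in the opposite direction under MLN4924, as did 1 of RGS16 (0.66). Groups of 3 arrays were not tested for a sample far from the others.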

How the results depend on the processing

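Of 111 genes followed under 19 alternatives none changed direction. Of the values, 1846 stayed on their side of the threshold, 246 lost the call and 15 gained it. Of the lost calls 107 came with the replicate block in the 6 arrays and 26 in a fit of only the 6 arrays. Genes higher under MLN4924 (1702) numbered 940 at the deposited scaling, 1009 with quantile normalization, 798 in a fit of only the groups compared and 620 at 2-fold; genes lower (1040) numbered 1668, 1252, 566 and 514. The calls in DMSO (787) fell to 235 at 2-fold and 346 with the first DMSO set and numbered 1159 with the second, those under Nutlin (3171) to 1552 at 2-fold. The difference from DMSO (2051) gave 1173 genes at adjusted p under 0.01, 828 at 2-fold and 1290 with the first DMSO set. That from Nutlin (1297) gave 773 with only the groups compared, 855 with the mean of probe sets, 2181 with array weights, 653 at adjusted p under 0.01, 686 at 2-fold and 1970 without 3 doubted libraries. Leaving out each array in turn gave 1346 to 1866 higher and 878 to 1025 lower under MLN4924, 712 to 804 in DMSO, 2864 to 3205 under Nutlin, 1382 to 2180 for the difference from DMSO and 965 to 1279 for that from Nutlin.

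Deviations of same-numbered arrays from their group means under MLN4924 correlated at 0.04, -0.02 and -0.05. The GL2 mean includes the library labelled GL2 replicate 3, so these values cannot decide whether replicate numbers pair the samples. With the replicate block in all arrays 1694 genes were higher and 1037 lower. With the block in only the 6 arrays, which leaves 2 residual degrees of freedom, limma called 0 genes, though 4371 had an unadjusted p under 0.05; the block gave 1049 under Nutlin and 370 for the difference from Nutlin. The table gives no background signal, so dim genes are uncertain.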
